A study of Homo sapiens with 4 samples.

Results

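The genes of the cytosolic ribosomal proteins were examined in chromatin accessibility data of LNCaP cells and of LNCaP cells resistant to enzalutamide. They were chosen by symbol alone: RPL or RPS with its number and copy letters, together with RPLP0, RPLP1, RPLP2 and RPSA. This gave 87 of the 20037 protein-coding genes that RefSeq places on the main chromosomes of GRCh38.p14. Of these, 46 encode a core protein of the large subunit, 31 encode a core protein of the small subunit, and 10 are related copies with an L or Y after the number. Mitochondrial ribosomal proteins were not included and were used as a comparison list. LNCaP is an established human prostate cancer cell line, and enzalutamide is a drug used to treat prostate cancer. ATAC-seq, in which a transposase places sequencing adapters into accessible DNA, was carried out on 2 libraries of LNCaP, labelled wild type, and on 2 libraries of LNCaP-resistance, labelled as treated with enzalutamide. The labels give RPMI-1640 with fetal bovine serum and antibiotics for both. The study's methods add that the resistant cells were grown in charcoal-stripped serum before stepwise increases of the drug, so the effects of serum and drug cannot be told apart, and each group stands for 1 cell population. The labels do not say whether its 2 libraries came from separate cultures.

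Each cytosolic ribosome is built from a large subunit, which joins amino acids and passes the new chain through an exit tunnel, and a small subunit, which holds and decodes the mRNA. Nearly every one of these proteins is needed in equal number, and their genes are transcribed at high rates in growing cells. Most of their mRNAs begin with a C and a run of pyrimidines, the TOP motif, through which mTOR signalling adjusts their translation. Free RPL5 and RPL11, bound to the small rRNA of the large subunit, can also inhibit MDM2 and so stabilise p53.

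The deposited data are 1 list of peak summits per library, 1 position per peak, each with a score. Replicates 1 and 2 of LNCaP had 117245 and 107344 summits, and those of the resistant cells had 70866 and 45618. They give no read counts, so sequencing depth is unknown, and a gene without a summit may be one whose peak did not pass the peak caller's threshold. A shorter list cannot be told apart from lower depth or fewer accessible sites. Scores were therefore turned into percentiles, the share of summits in that library scoring no higher. For each gene the strongest summit within 3 kb of either gene end was taken. The luminal prostate markers KLK2 and KLK3 had such a summit in each library, at 87.3 and 87.3 in LNCaP and 83.2 and 75.3 in resistant cells for KLK2, and at only 4.79 and 3.46 in LNCaP and 82.7 and 60.6 in resistant cells for KLK3. KRT5, a marker of basal cells, and PTPRC, of leukocytes, had none in any library, and TP63 had 1 in LNCaP replicate 1, at percentile 0.023. Of the other cell types' markers, 1 of 3 basal, 1 of 3 leukocyte, 2 of 2 endothelial and 2 of 3 fibroblast genes had a summit in all 4 libraries, and a summit near a gene end does not show expression. With 2 libraries against 2, an exact permutation test cannot give a two-sided p below 0.33, so groups were compared by whether they overlapped, and no test was made.

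Nearly all ribosomal protein genes lay beside accessible chromatin in both cell populations. A summit was listed for 86, 86, 84 and 84 of the 87 genes in LNCaP replicates 1 and 2 and resistant replicates 1 and 2. All 4 libraries listed one for 84 genes (96.6%), against 68.2% of all protein-coding genes. The 84 included each of the 77 core genes and 7 of the 10 related copies. The 3 exceptions within 3 kb of a gene end were RPL10L, RPL26L1 and RPS4Y2, copies outside the core set. For RPL26L1 the start that RefSeq's promoter table lists lies inside the gene, and a summit stood near it in all 4 libraries.

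Although a summit was nearly always present, it was not of exceptional strength. For LNCaP replicates 1 and 2 the genes' median percentile was 87.6 and 86.1, and for the resistant replicates 87.4 and 84.5. All protein-coding genes with a summit had medians of 83.6 and 82.8, and of 85.3 and 81.1. Among genes present in all 4 libraries, medians of the group means were 86.8 and 84.4, against 85.5 and 84.7 of coding genes. Within 1 kb of a gene end the LNCaP median was 84.1, below the 85.6 of coding genes. Of the 84 genes, 18 (21.4%) reached percentile 90 in all 4 libraries, against 22.5% of the protein-coding genes present in all 4. In the single libraries 38 of 86 and 36 of 86 reached it in LNCaP, and 30 of 84 and 27 of 84 in resistant cells. Among coding genes with a summit the shares were 34.9% and 33.3%, and 36.6% and 29.8%. Weak summits were scarcer than among all genes: 3, 6, 2 and 1 of the ribosomal protein genes fell below percentile 50 in the 4 libraries, where 14.5%, 15.6%, 11.0% and 14.6% of all genes with a summit did.

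The strongest summits were those of RPL36AL, RPS27A, RPSA, RPL27, RPL37 and RPS13. RPL36AL, a copy of RPL36A on chromosome 14, had percentiles of 98.3 and 99.6 in LNCaP and 98.2 and 98.9 in resistant cells, and its summit in LNCaP replicate 1 lay 96 bp from an end of MGAT2, so the 2 genes cannot be told apart there. RPS27A, whose protein is made as a fusion with ubiquitin, had 99.0, 96.6, 99.2 and 97.6. RPSA, which is also known as a laminin receptor, had 98.4, 98.2, 97.1 and 97.8. RPL27, RPL37 and RPS13 stood between 95.7 and 99.0 in every library.

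At the other end stood RPL36, RPS15, RPL19, RPL13A and RPL39L, together with a Y-linked copy whose level is not given here. RPL36 had percentiles of 57.3 and 44.6 in LNCaP and 39.2 and 57.8 in resistant cells, the weakest of the core genes in their mean. RPS15, a protein near the decoding centre, had 68.1, 48.2, 62.7 and 49.96. RPL13A had 69.0, 53.0, 81.1 and 57.6. For these 3 genes replicates of 1 group lay further apart than the group means, and the groups overlapped.

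**Figure D1:**
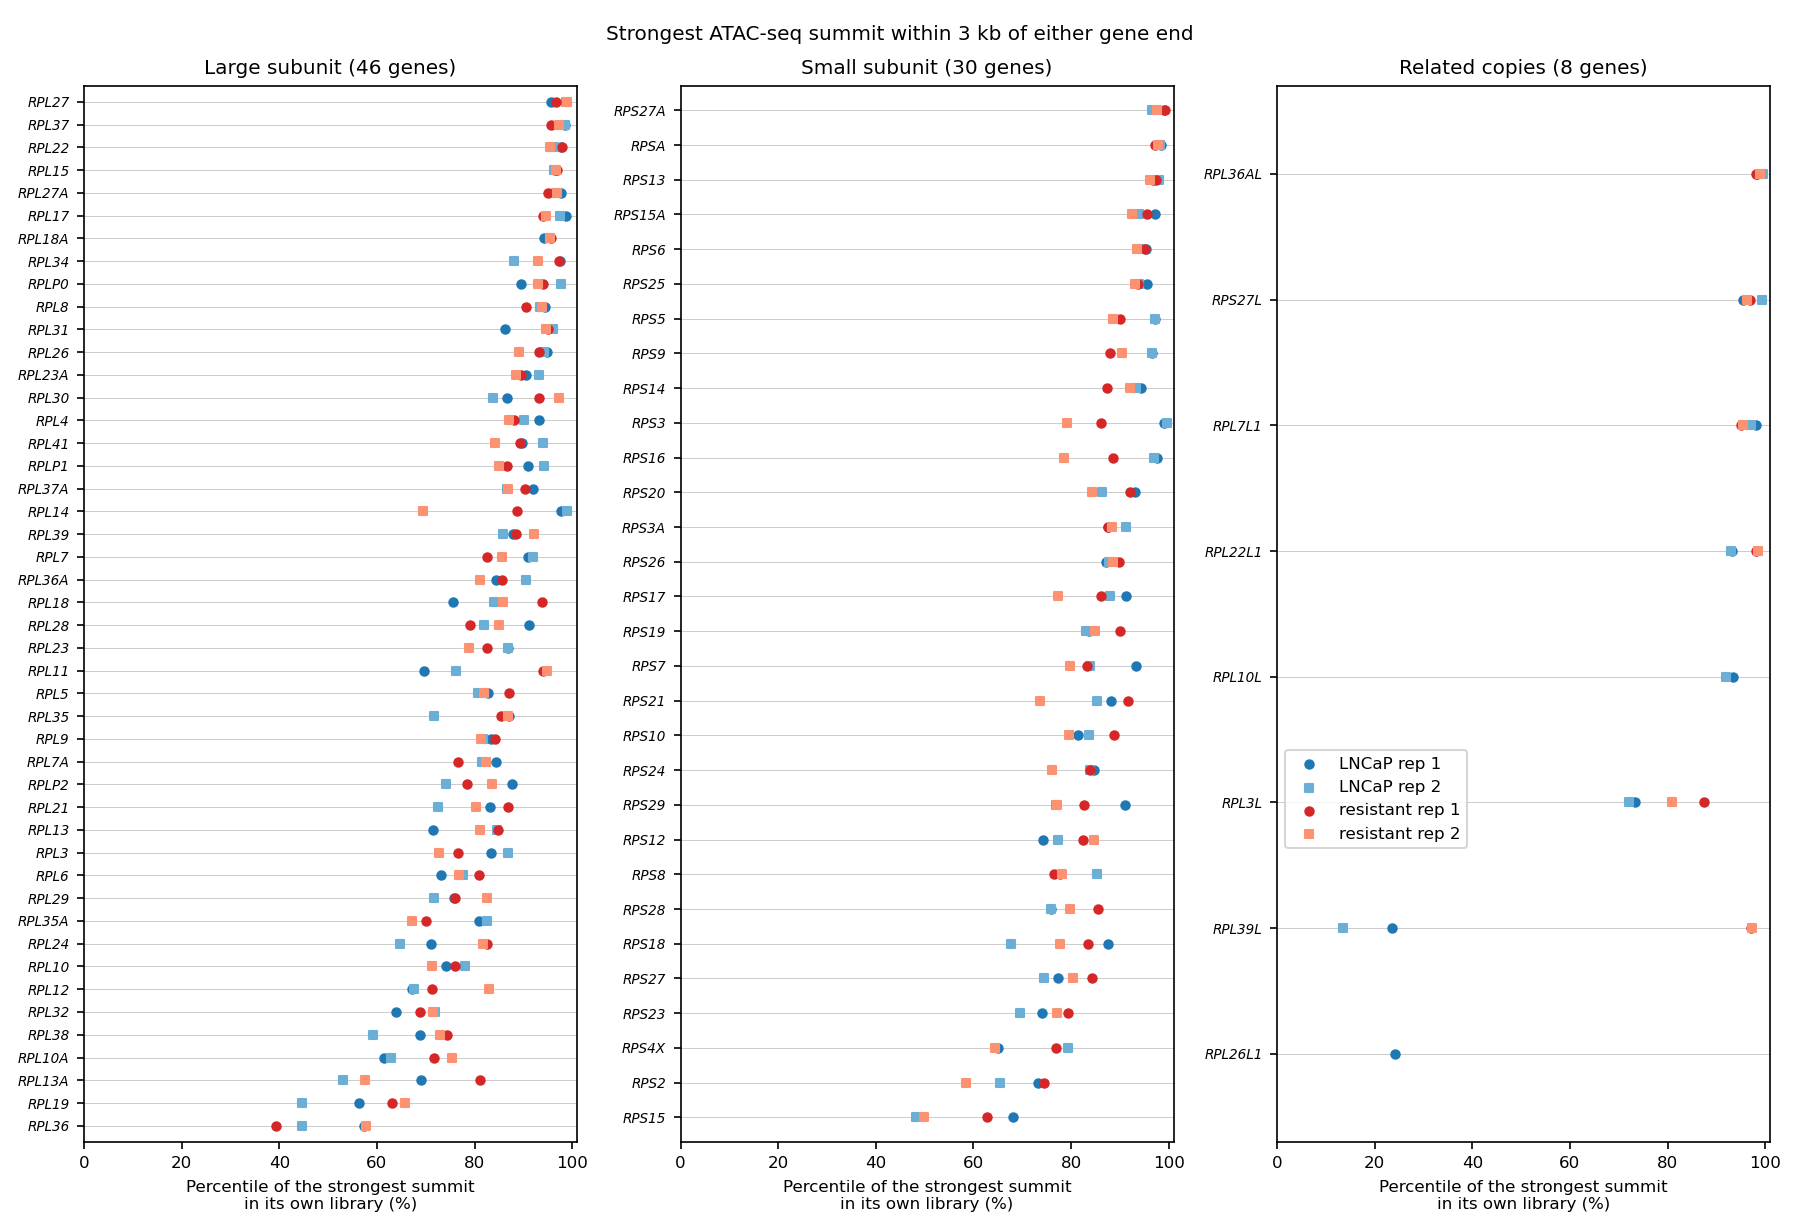
Percentile of the strongest summit within 3 kb of either gene end, on the x axis, for each ribosomal protein gene with points for the 4 libraries; genes are ordered by their mean, and both Y-linked copies and 1 small subunit gene are left out. Most points lie above 50, RPL39L stands at 23.6 and 13.6 in LNCaP and at 97.0 and 97.2 in resistant cells, and RPL10L has points in LNCaP alone.

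The position of the summits was then examined, for the 70 genes whose transcription start RefSeq's promoter table lists. Offsets are given along the direction of transcription, with negative values upstream of the start. Within 500 bp of a listed start, 64 of the 70 genes (91.4%) had a summit in all 4 libraries, against 55.3% of the 15842 protein-coding genes with a listed start. The strongest such summit had a median offset of -53 and -49 bp in LNCaP and of -56 and -49 bp in resistant cells, beside the -50, -52, -50 and -47 bp of all coding genes. Thus the summit lay just upstream of the start, as at other promoters. The exceptions were RPL10A, RPL10L, RPL26, RPL41, RPS19 and RPS4Y2, which missed a start-proximal summit in at least 1 library. For RPS19, the gene most often mutated in Diamond-Blackfan anaemia, the strongest summits of LNCaP replicate 2 and of both resistant libraries lay at -562, -527 and -528 bp, just outside that distance.

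**Figure D2:**
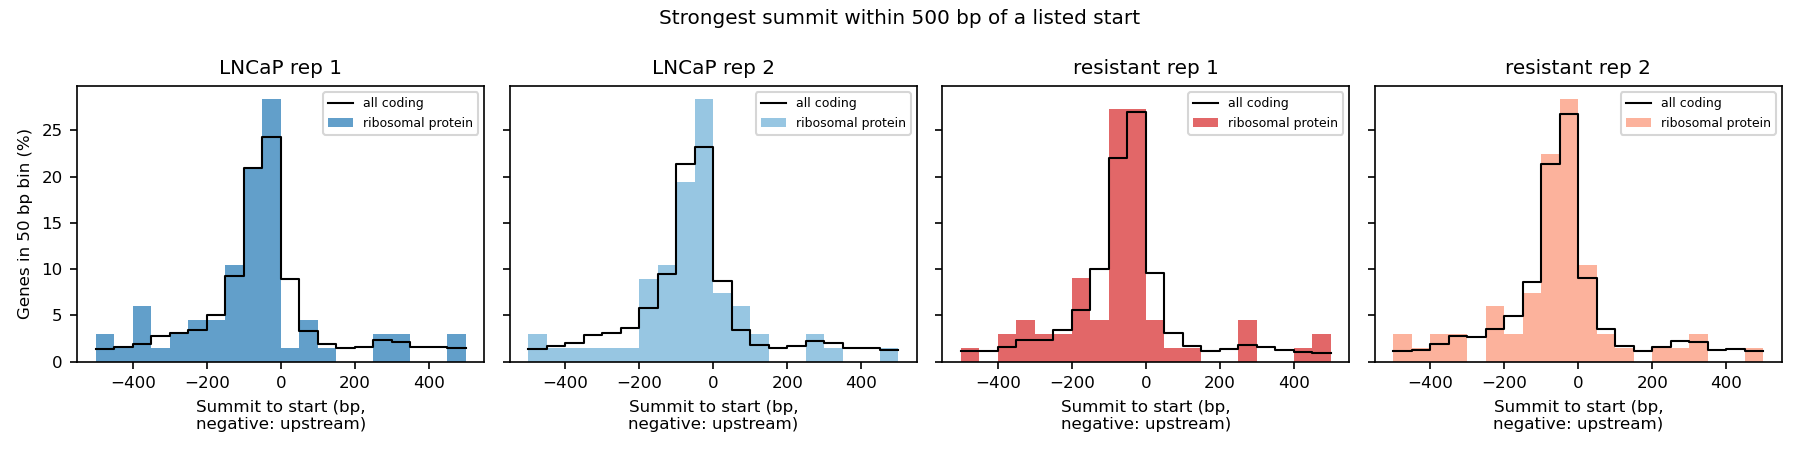
Distance from the start to the strongest summit within 500 bp of it, in bins of 50 bp (x axis, negative upstream), as percent of genes (y axis); bars are ribosomal protein genes and the black line all protein-coding genes, 1 panel per library. In each library the bars and the line peak in the 2 bins just upstream of the start.

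The strongest summit of the gene was not always the one at its start. In LNCaP replicates 1 and 2 it lay within 500 bp of a listed start for 50 (72.5%) and 53 (76.8%) of 69 genes, and in the resistant replicates for 56 (83.6%) and 61 (91.0%) of 67. For all coding genes with a listed start the shares were 60.8%, 61.1%, 70.0% and 71.8%. The share was thus higher in both resistant libraries than in both LNCaP libraries, for ribosomal protein genes and for coding genes in general. The resistant lists are also the shorter ones, and the part of list length in this was not tested. In all 4 libraries the strongest summit was nearer the 5′ end than the 3′ end for 52 of 67 genes. By library this share was 79.7% and 85.5% in LNCaP and 89.6% and 94.0% in resistant cells. Coding genes had 81.9% and 81.8%, and 86.8% and 88.0%.

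Promoter sequence was compared between 67 ribosomal protein genes and 13819 protein-coding genes whose listed start is the outermost end of the gene. The window ran from 250 bases before to 50 bases after the start, letters were searched on both strands, and a base could count for more than 1 motif. A pyrimidine run of the TOP kind, a C with at least 4 further pyrimidines beginning within 10 bases of the start on the strand that reads as the mRNA, was found in 57 of 67 promoters (85.1%, 95% Wilson interval 74.7 to 91.7), against 33.8% of all promoters. The ETS letters CCGGAAG were in 34.3% (24.1 to 46.3) against 14.6%, and the ZBTB33 letters TCGCGAG were in 17.9% (10.6 to 28.7) against 3.29%. The YY1 letters AANATGG were in 26.9% (17.7 to 38.5) against 15.3%. For these 4 the share of all promoters lay below the interval of the ribosomal protein promoters.

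For the other motifs the share of all promoters lay within the interval of the ribosomal protein promoters. GGGCGG, which SP and KLF factors bind, was in 53.7% (41.9 to 65.1) against 58.5%, TATAA in 19.4% (11.7 to 30.4) against 17.1%, and the E-box CACGTG, bound by MYC among others, in 5.97% (2.35 to 14.4) against 8.95%. TGTTTAC, the FOXA motif, was in 0 of 67 promoters (upper limit 5.42%) against 2.53%. AP-1 letters, TGANTCA, were in 2.99% (0.82 to 10.2) against 5.77%. The intervals cover counting error only, and a match of letters does not show that a factor binds there.

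Mean percentiles over the 4 libraries were set beside these motifs as a description. The 23 genes with ETS letters and the 42 without had the same median, 84.7. The 35 genes with GGGCGG had a median of 88.6 and the 30 without 82.4. The 18 genes with YY1 letters had a median of 79.2 and the 47 without 85.5, and the 12 with TATAA had 81.1 against 85.1 for the 53 without. The 57 genes with the pyrimidine run had 84.7 and the 8 without it 89.0, and the 4 with the E-box had 72.2 against 85.1 for the 61 without.

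**Figure D3:**
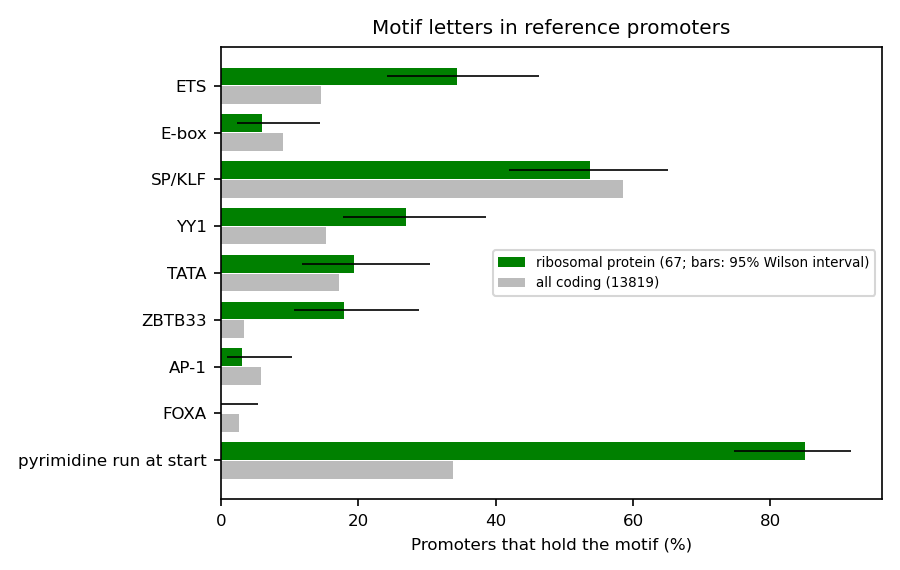
Percent of promoters (x axis) that hold each motif, for 67 ribosomal protein genes in green with 95% Wilson intervals and 13819 coding genes in grey. The pyrimidine run stands at 85.1% against 33.8%, and the grey bars of ETS, YY1, ZBTB33 and the pyrimidine run end below the green intervals.

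For 12 genes the RefSeq sequence around the start (GRCh38.p14, 130 bases before and 20 from the start on, 5′ to 3′ along the gene) is shown. RPL11, RPL3, RPL7A, RPL24, RPL22L1, RPL35A and RPL10L are shown because their summit at the start differed between the groups, and RPL36AL, RPSA, RPLP0, RPS6 and RPL36 for comparison. Capitals mark the letters of the ETS, YY1, TATA, E-box, SP/KLF and ZBTB33 motifs above on either strand, and the pyrimidine run at the start.
RPL11 (chr1:23691649-23691798, plus strand): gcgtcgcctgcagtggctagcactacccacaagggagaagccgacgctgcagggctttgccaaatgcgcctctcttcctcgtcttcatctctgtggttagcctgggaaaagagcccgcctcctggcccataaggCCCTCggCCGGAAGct
RPL3 (chr22:39319604-39319753, minus strand): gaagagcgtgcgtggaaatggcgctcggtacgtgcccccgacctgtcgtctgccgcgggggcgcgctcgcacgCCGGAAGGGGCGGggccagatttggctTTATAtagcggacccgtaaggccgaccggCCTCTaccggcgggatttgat
RPL7A (chr9:133348088-133348237, plus strand): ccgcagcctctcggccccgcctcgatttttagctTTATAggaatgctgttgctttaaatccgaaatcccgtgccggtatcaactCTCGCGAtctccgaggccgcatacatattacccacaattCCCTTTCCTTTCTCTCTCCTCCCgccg
RPL24 (chr3:101686699-101686848, minus strand): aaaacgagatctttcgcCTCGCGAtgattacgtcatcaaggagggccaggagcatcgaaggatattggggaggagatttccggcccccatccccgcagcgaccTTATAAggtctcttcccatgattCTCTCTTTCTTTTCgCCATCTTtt
RPL22L1 (chr3:170870176-170870325, minus strand): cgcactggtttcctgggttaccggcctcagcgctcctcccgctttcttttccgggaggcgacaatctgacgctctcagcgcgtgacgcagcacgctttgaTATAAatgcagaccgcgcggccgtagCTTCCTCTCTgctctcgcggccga
RPL35A (chr3:197950060-197950209, plus strand): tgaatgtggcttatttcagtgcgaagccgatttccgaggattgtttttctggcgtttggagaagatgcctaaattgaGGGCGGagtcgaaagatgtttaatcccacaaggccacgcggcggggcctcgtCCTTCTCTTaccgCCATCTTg
RPL10L (chr14:46651762-46651911, minus strand): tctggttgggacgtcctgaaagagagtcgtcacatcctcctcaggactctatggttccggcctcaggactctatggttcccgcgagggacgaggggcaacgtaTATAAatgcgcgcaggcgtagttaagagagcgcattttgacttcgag
RPL36AL (chr14:49620607-49620756, minus strand): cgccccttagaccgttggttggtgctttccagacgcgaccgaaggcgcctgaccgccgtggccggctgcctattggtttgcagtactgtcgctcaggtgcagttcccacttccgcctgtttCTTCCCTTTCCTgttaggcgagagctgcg
RPSA (chr3:39406590-39406739, plus strand): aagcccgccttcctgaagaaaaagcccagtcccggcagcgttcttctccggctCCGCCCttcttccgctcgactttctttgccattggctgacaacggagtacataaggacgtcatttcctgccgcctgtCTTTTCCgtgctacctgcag
RPLP0 (chr12:120201092-120201241, minus strand): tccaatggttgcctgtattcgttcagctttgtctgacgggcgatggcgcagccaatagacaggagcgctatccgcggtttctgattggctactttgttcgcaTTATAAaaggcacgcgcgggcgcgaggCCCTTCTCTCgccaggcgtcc
RPS6 (chr9:19380217-19380366, minus strand): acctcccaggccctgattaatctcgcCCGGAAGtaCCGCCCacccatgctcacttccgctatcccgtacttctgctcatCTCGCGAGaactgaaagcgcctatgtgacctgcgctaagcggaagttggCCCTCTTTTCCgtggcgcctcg
RPL36 (chr19:5690165-5690314, plus strand): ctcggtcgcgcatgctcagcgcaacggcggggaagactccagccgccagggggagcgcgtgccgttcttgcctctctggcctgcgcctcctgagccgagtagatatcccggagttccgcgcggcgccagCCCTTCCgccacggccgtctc

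In 11 of the 12 sequences a pyrimidine run stands at the start, 5 bases long in RPL11 and RPL3 and 23 bases in RPL7A. RPL10L, a copy that arose by retroposition and is known from the testis, is the exception and carries TATAA letters at -27. RPL11 has ETS letters at 12, within the transcribed part. RPS6, whose protein is phosphorylated by S6 kinase, has ETS letters at -104 and overlapping ZBTB33 letters at -51 and -50.

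Between LNCaP and resistant cells the genes as a group stood at nearly the same percentile. The median of the group means was 86.8 in LNCaP and 84.4 in resistant cells, and the median change, resistant minus LNCaP, was -0.60 percentile points. For all coding genes present in all 4 libraries the median change was -0.14. Within replicate 1 the genes' median change was 0.05 and within replicate 2 it was -0.57. In 21 genes (25.0%) both resistant libraries were above both LNCaP libraries, against 24.6% of coding genes, and in 24 genes (28.6%) both were below, against 26.1%. Both shares were near the background. When each list was shortened to its best 45618 summits, 78 genes had a value in all 4 libraries. Of these 78, 45 were higher and 5 lower, against 60.6% and 8.15% of coding genes. Their median change was 10.8 points against 10.1 for coding genes. A difference of more than 10 points was seen in 14 of 84 genes (16.7%), against 28.0% of coding genes, while on ranks among coding genes alone it was seen in 34 (40.5%), against 45.6%. The difference between these shares was not tested. Replicates also lay closer together, with a median SD within groups of 2.86 points (n = 2 per group) against 4.08 for coding genes.

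Of the 46 large subunit genes, 11 (23.9%) were higher and 12 (26.1%) lower in resistant cells, with a median change of 0.20 points. Of the 31 small subunit genes, 6 (19.4%) were higher and 11 (35.5%) lower, with a median change of -1.54 points. Both stand beside the 24.6% higher and 26.1% lower of coding genes, and the difference between the subunits was not tested.

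**Figure D4:**
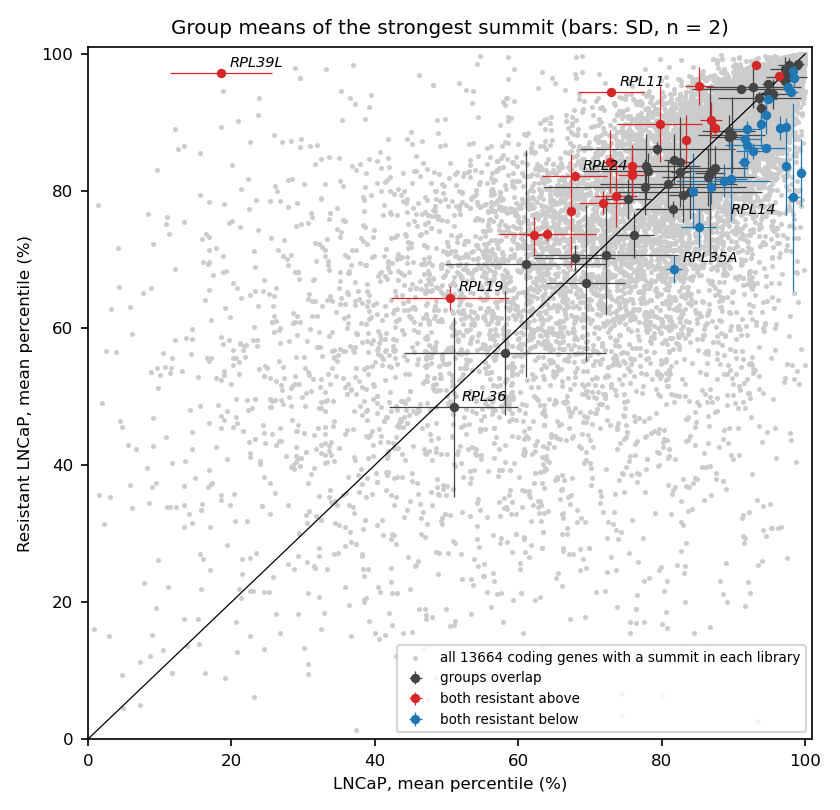
Mean percentile of the strongest summit in LNCaP (x axis) and resistant cells (y axis), with SD bars (n = 2), for 83 ribosomal protein genes (a Y-linked copy is left out) and, in grey without bars, all 13664 coding genes present in each library. Most coloured points lie near the diagonal, while RPL39L and RPL11 stand above it and RPL14 and RPL35A below it.

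Because a summit at the 3′ end or of a neighbouring gene can outrank the one at the start, the comparison was repeated for the strongest summit within 500 bp of a listed start. This alternative was chosen after seeing the data. Of 64 genes, 21 (32.8%) were then higher in both resistant libraries, against 27.7% of coding genes, and 10 (15.6%) were lower, against 20.6%. The median of the group means was 82.0 in LNCaP and 83.5 in resistant cells, with a median change of 1.87 points, where coding genes had 87.3, 87.7 and 0.41. Only 15 of the 24 genes lower before had a start value in all 4 libraries. Of these 15, 10 stayed lower and 2 became higher. Of the 21 genes higher before, 16 had such a value, and all 16 stayed higher. At genes such as RPL11, RPL24, RPL22L1 and RPL35A both measures took the same summit in each library, so their call could not change. The calls that were kept are therefore no separate check of the first comparison.

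Among genes whose strongest summit was at the start in all 4 libraries, the largest difference was at RPL11, whose protein binds the small rRNA of the large subunit together with RPL5. RPL11 (chromosome 1, 23691779 to 23696835) had percentiles of 69.7 and 76.2 in LNCaP and 94.1 and 94.8 in resistant cells. The groups did not overlap and differed by 21.5 points, from 72.9 ± 4.58 to 94.4 ± 0.46 (SD, n = 2). The summit stayed in place, at -19 and -54 bp in LNCaP and at -27 and -30 bp in resistant cells, within the promoter shown above. RPL12, a neighbour at the base of the stalk, had 67.3 and 67.5 in LNCaP and 71.3 and 83.0 in resistant cells. Its 4 summits lay between -52 and -50 bp, that of LNCaP replicate 1 being 28 bp from an end of LRSAM1. RPL5, the partner of RPL11, had 82.8 and 80.7 in LNCaP and 87.2 and 81.9 in resistant cells, and its groups overlapped.

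The proteins of the stalk, which recruit the elongation factors, did not move together. RPLP1 had percentiles of 91.0 and 94.3 in LNCaP and 86.6 and 85.0 in resistant cells, a change of -6.87 points from 92.7 ± 2.31 to 85.8 ± 1.15 (SD, n = 2), which became 0.34 points with lists of equal length, below the 10.1 of coding genes there. RPLP0 had 89.6, 97.7, 94.1 and 93.0 and RPLP2 had 87.7, 74.2, 78.5 and 83.5. The resistant values of both lay between their LNCaP values, whose SDs were 5.73 and 9.52.

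Of the proteins that line the exit tunnel, RPL39 was higher in resistant cells (87.9 and 85.7 against 88.5 and 92.2), and RPL4 and RPL17 were lower. RPL17 had percentiles of 98.7 and 97.5 in LNCaP and 94.1 and 94.6 in resistant cells, but this strongest summit lay between 5172 and 5216 bp past its start, at 57 bp from an end of C18orf32 in LNCaP replicate 1. At the start of RPL17 the values were weaker, at 61.7 and 64.5 in LNCaP and 45.1 and 44.0 in resistant cells. RPL4 had 93.2, 90.03, 88.0 and 87.0, and its summit in LNCaP replicate 1 lay 66 bp from an end of ZWILCH.

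Around the decoding site and the mRNA channel, RPS23 was higher in resistant cells, with 74.0 and 69.5 in LNCaP and 79.5 and 77.1 in resistant cells. RPS3 was lower, with a change of site given with RPL14. RPS2 and RPS15, and FAU, which encodes RPS30 and lies outside the symbol rule, overlapped between groups.

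A chosen list of 15 genes mutated in Diamond-Blackfan anaemia, a red cell disorder of ribosomal protein loss, included 5 that were higher and 5 lower. These are 33.3% each, against 24.6% and 26.1% of coding genes, and the list's median change was 0.68 points. RPS19 had 83.8 and 83.1 in LNCaP and 90.1 and 84.9 in resistant cells, but its summit in LNCaP replicate 1 lay at the other end of the gene, 12908 bp past the start. RPL35A (chromosome 3, 197950190 to 197956610) had 80.9 and 82.5 in LNCaP and 70.1 and 67.2 in resistant cells, a change of -13.0 points from 81.7 ± 1.15 to 68.6 ± 2.07 (SD, n = 2), which became 5.55 points with lists of equal length, below the 10.1 of coding genes there. Its 4 summits lay between -315 and -305 bp, so the site was the same. For RPS6 the groups overlapped, with 95.3 and 94.2 against 95.1 and 93.5.

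Among the other genes with the largest differences, RPL24, which helps join the subunits, had 71.0 and 64.7 in LNCaP and 82.6 and 81.7 in resistant cells, with summits between -128 and 18 bp. RPL30 had 86.6 and 83.8 in LNCaP and 93.3 and 97.2 in resistant cells. RPL19 had 56.3 and 44.7 against 63.2 and 65.7, although in replicate 1 of both groups the summit lay at -2687 and -2652 bp, 73 bp from an end of CACNB1 in LNCaP. RPL10A had 61.4 and 63.0 against 71.6 and 75.4, with summits at -558, 0, 423 and -9 bp.

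In 66 of 84 genes (78.6%, against 73.5% of coding genes) the strongest summits of all 4 libraries lay within 500 bp of each other, with a median range of 38.5 bp. These gave 17 genes higher and 17 lower in resistant cells. In the other 18 genes the site changed between libraries, and of these 4 were higher and 7 lower. The same split by site was not made for coding genes, of which 24.6% were higher and 26.1% lower whatever their site. Whether these counts differ from those of coding genes was not tested. The 3 largest differences downward, at RPL14, RPS3 and RPS16, belonged to the kind whose site changed. RPL14 (chromosome 3, 40457339 to 40468587) had 97.7 and 98.9 in LNCaP, from a summit 10849 and 10846 bp past its start at the far end of the gene. In resistant cells it had 88.8 and 69.4, from the summit at the start, at -43 and -32 bp. At that start the LNCaP values were 80.9 and 79.4, so the start itself overlapped between groups.

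The same change of site was seen at RPS3, which sits where mRNA enters the small subunit. In LNCaP it had 99.1 and 99.6, from a summit 22918 and 22913 bp past the start and 42 bp from an end of KLHL35 in replicate 1. In resistant cells it had 86.1 and 79.2, from the start. At its start RPS3 had 88.1 and 93.0 in LNCaP, above both resistant values. RPS16 had 97.6 and 97.1 in LNCaP, from 5038 and 5036 bp past the start, and 88.6 and 78.5 at the start in resistant cells. The start of RPS16 gave 81.1 and 77.5 in LNCaP, and these overlapped with the resistant values. RPS9 went from 96.5 and 96.6, at 9133 and 9139 bp past the start, to 88.0 and 90.4, while at its start it went the other way, from 82.8 and 81.6.

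At RPL3 and RPL7A the start differed more than the strongest summit did. RPL3, a protein next to the peptidyl transferase centre, had 83.4, 86.9, 76.6 and 72.7 for its strongest summits, lower in resistant cells, with a change of 4.92 points with lists of equal length, below the 10.1 of coding genes there. They lay at 8490, -714, 8424 and -87 bp. Within 500 bp of its start it had 13.6 and 3.56 in LNCaP, at 336 and 292 bp, and 70.5 and 72.7 in resistant cells, at -55 and -87 bp. RPL7A had 45.6 and 44.9 at its start in LNCaP, at -44 and -36 bp, and 76.7 and 82.3 in resistant cells, at -38 and -26 bp. In LNCaP stronger summits of RPL7A, at 84.3 and 81.6, lay at -1295 and -1290 bp. The lists give 1 summit per peak and no peak width, so whether a start lay inside a wider LNCaP peak cannot be told.

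**Figure D5:**
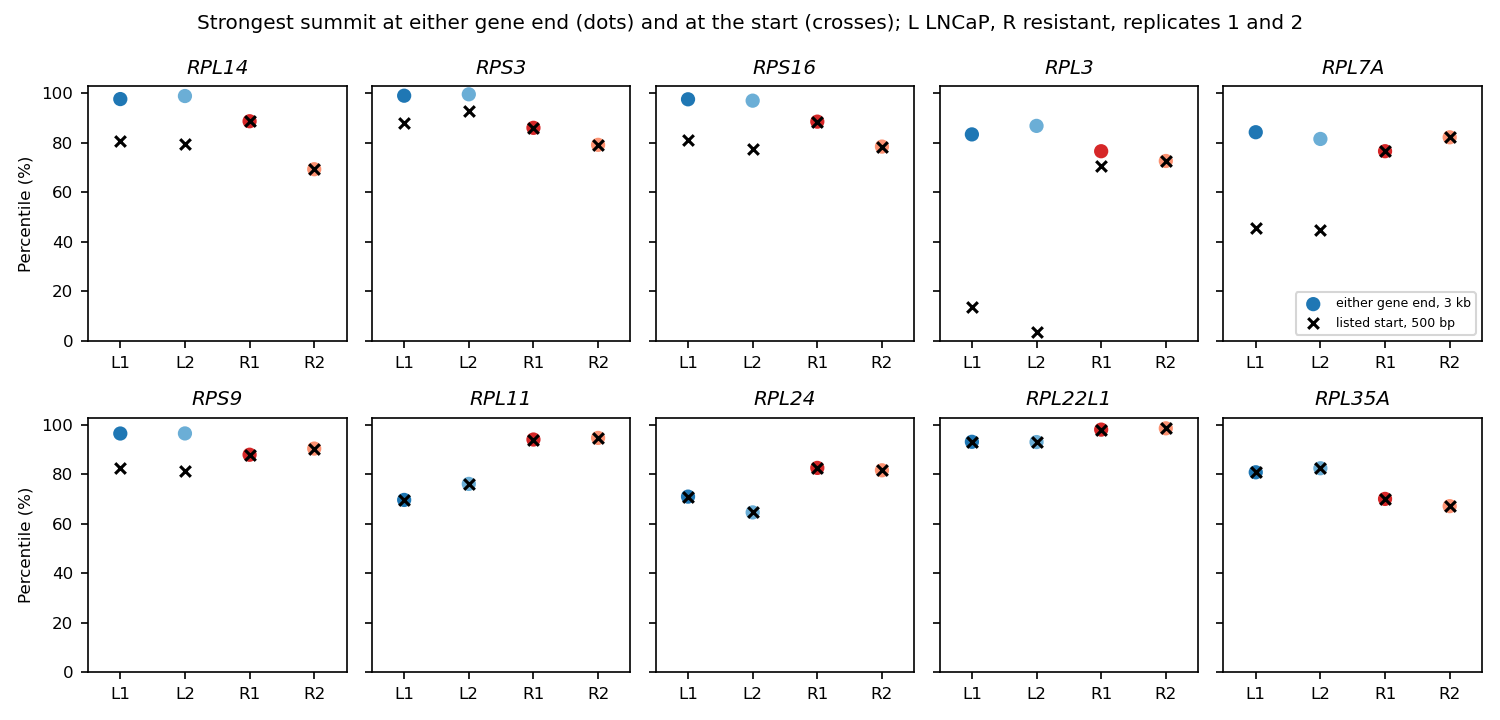
Percentile (y axis) of the strongest summit at either gene end (coloured dots) and within 500 bp of a listed start (crosses) for 10 genes in LNCaP (L) and resistant (R) replicates 1 and 2. Dots and crosses coincide at RPL11, RPL24, RPL22L1 and RPL35A, and part in LNCaP at RPL14, RPS3, RPS16, RPL3, RPL7A and RPS9.

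The related copies included the largest difference of all. RPL39L (chromosome 3, 187120948 to 187139496), a copy of RPL39 known from the testis and from some cancers, had percentiles of 23.6 and 13.6 in LNCaP and 97.0 and 97.2 in resistant cells. The change of 78.6 points, from 18.6 ± 7.09 to 97.1 ± 0.14 (SD, n = 2), was the largest of the 84 genes in either direction. Both LNCaP summits were weak, with scores below 10 and outside the best 45618 of their lists. RPL39L therefore had no change to compare with a minimum score of 10 or with lists of equal length. Its 4 summits lay at 294, -99, 18 and -3 bp from its higher-coordinate end, so all fell within 500 bp of each other. RPL22L1, the copy of RPL22, had 93.2 and 93.1 in LNCaP and 98.1 and 98.6 in resistant cells, with summits between -89 and -51 bp of the start.

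RPL10L (chromosome 14, 46651010 to 46651781) went the other way. It had summits at 93.4 and 91.9 in LNCaP, at -100 and -167 bp, and none was listed within 3 kb in either resistant library. RPL26L1 had 1 summit within 3 kb of its gene ends, at 24.2 in LNCaP replicate 1. Its listed start, inside the gene, had summits 477 to 489 bp downstream, at 82.6 and 81.0 in LNCaP and 84.9 and 85.6 in resistant cells. RPL3L, the copy of RPL3 found in muscle, had 73.4 and 72.1 against 87.5 and 81.0, with a summit 95 bp from an end of MSRB1 in LNCaP replicate 1. RPL7L1 had 98.2 and 97.1 against 94.97 and 95.4, and this summit lay 37 bp from an end of PEX39, while its 5′ end gave a change of 5.21 points the other way. RPS27L, a target of p53, had 95.4 and 99.5 against 97.0 and 96.3, and its groups overlapped. Of the 2 Y-linked copies, 1 had a summit in all 4 libraries and was among the 21 genes higher in resistant cells.

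Neighbouring genes bear on these values beyond the copies. In LNCaP replicate 1 the strongest summit of 25 of 86 ribosomal protein genes lay within 500 bp of an end of another protein-coding gene. The same count was not made for all coding genes. A summit between such genes counts for both of them, and the lists do not separate them.

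Lists of other genes of protein synthesis and turnover gave the setting. Of 76 mitochondrial ribosomal protein genes, 74 had a summit in all 4 libraries, with medians of 92.6 in LNCaP and 90.1 in resistant cells, above those of the cytosolic genes. In 11 (14.9%) both resistant libraries were higher and in 20 (27.0%) lower, against 24.6% and 26.1% of coding genes, shares that also stand beside the lists that follow. MRPL43 had 61.8 and 52.2 in LNCaP against 89.3 and 79.5 in resistant cells, and MRPL45 had 79.8 and 81.1 against 67.2 and 49.3. Of 39 proteasome subunit genes, 36 had a summit in all 4, with medians of 91.5 and 91.5, and 10 (27.8%) were higher and 6 (16.7%) lower. PSMB4, of the catalytic core, had 77.2 and 72.0 against 91.0 and 92.5.

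Of 17 other genes whose mRNAs carry the TOP motif, 16 had a summit in all 4 libraries, with medians of 86.2 and 89.0, and 4 (25.0%) were higher and 3 (18.8%) lower. EEF1A1, the elongation factor that brings aminoacyl-tRNA, had 74.3 and 65.5 in LNCaP against 86.0 and 88.3 in resistant cells. EEF1D, of the factor that reloads it with GTP, had 89.0 and 86.7 against 78.3 and 77.1. All 18 genes of ribosome assembly and RNA polymerase I had a summit in all 4, with medians of 91.6 and 91.3, and 5 (27.8%) were higher and 2 (11.1%) lower. PES1, a factor of large subunit assembly, had 51.2 and 48.9 against 67.9 and 77.1, and UBTF, which binds rRNA gene promoters, had 48.0 and 52.4 against 68.0 and 71.3. No test compared these lists with each other.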

How the data were processed

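ATAC-seq was analysed in 2 libraries of LNCaP and 2 of LNCaP-resistance, grouped by their titles. The authors deposited peak summits called per library, with scores of the −log10 kind; whether these are p or q values is not given in the sources used here. The submitters' processing notes name hg38, Bowtie2 2.2.5, SAMtools 1.6 and MACS2 2.2.6, with no parameters. No shift of transposase cuts or duplicate removal is described in them, and depth is unknown.

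From these files, percentiles within each library were computed with Python 3.11.15, numpy 2.4.6, pandas 2.3.3 and scipy 1.17.1, and figures with matplotlib 3.10.9. The strongest summit within 3 kb of either gene end represented a gene. Starts and promoter sequences came from RefSeq (GRCh38.p14), where 70 of 87 genes matched. The computation was tested on simulated lists. The members and lists were chosen with earlier results of these data known. Genes were named by rule: those absent from a library, the 6 highest and 6 lowest, the 6 largest differences each way among groups that did not overlap, the stalk genes, RPSA, RPL5, RPL11, RPS6, RPS19, the copies, and up to 4 of each other list. RPL3 and RPL7A at their starts, RPS9, RPL4, RPL12, RPL17, RPL30, RPL39 and RPS23 were named after their values were seen. Levels of both Y-linked copies are not given, and a few results that these rules would name are not reported here.

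The labels give replicate numbers as a batch. Deviations of same-numbered libraries from their group means correlated at 0.04 over coding genes and 0.06 over the ribosomal protein genes.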

Additional observations from a re-analysis of the deposited data

How the results depend on the processing

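Percentiles depend on how many weak summits a list holds. When each list was shortened to its best 45618 summits, 78 genes had a summit in all 4. The medians were 70.8 in LNCaP and 82.1 in resistant cells, against 72.3 and 85.0 of coding genes. The median change was 10.8 points against 10.1 for all coding genes. Then 45 genes were higher, against 60.6% of coding genes, and 5 lower, against 8.15%. Of the 21 genes higher before, 18 had a value here. All 18 stayed higher, 17 of them above the median change of coding genes. Of the 24 lower, 5 stayed lower, 4 became higher and 23 remained below the median change of coding genes. Changes at RPL3 (4.92), RPL35A (5.55), RPLP1 (0.34) and RPSA (0.87) turned upward, all below that 10.1. A score of at least 10 gave medians of 76.5 and 75.7, against 77.8 and 78.6 of coding genes. Ranks among coding genes gave 58.0 and 53.3, against 55.5 and 53.8. A distance of 1 kb gave an LNCaP median of 84.1 against 85.6. The 5′ end alone gave an LNCaP median of 82.2 against 85.4 of coding genes. With it 12 of 67 genes were lower, against 22.96% of coding genes. Within 500 bp of a start the LNCaP median was 82.0, the change 1.87 and 10 of 64 genes were lower. Coding genes had 87.3, 0.41 and 20.6% there. At RPS16 the change became 4.27 with 1 kb, with the 5′ end alone and within 500 bp, at RPL7L1 5.21 with the last 2, and at RPL3 63.0 within 500 bp. Without 1 library the medians ranged from 86.1 to 87.6 in LNCaP and from 84.4 to 87.4 in resistant cells, the highest without resistant replicate 2. Of the genes higher there were 23 to 33, with 32 without LNCaP replicate 1 and 33 without resistant replicate 2, and of the genes lower 32 to 38, the most without LNCaP replicate 2, since 1 library then stands for a group. The shares of coding genes moved too, from 29.7% to 45.0% higher and from 31.9% to 49.0% lower. Compared within replicate numbers as a replicate block, 26 genes were higher and 30 lower (31.9% and 33.8% of coding genes), with a change of -0.60. From 100 bases before to 50 after the start, the E-box share was 1.49%, GGGCGG 38.8% and AP-1 0%. In that window all promoters had 5.35%, 47.1% and 2.76%. For the named genes, 215 recomputed changes stayed within the spread between replicates, 62 moved beyond it and 10 reversed.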
